A study of Cucumis sativus with 6 samples.

Results

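The genes described here are the 82 gene models, of 17073 listed for the cucumber fruit, whose level was at least 2-fold higher in the line GFC than in the line 32X. They were chosen by their measured values: the mean of log2(RPM + 1) over the 3 GFC libraries had to lie at least 1 above that over the 3 32X libraries, the lowest GFC library had to lie above the highest 32X library, and the mean over the 6 libraries had to be under 800 RPM (reads per 1000000 reads counted in listed genes). They made up 0.48% of the listed genes. The mirror image of this rule, with the lines exchanged, held 359 genes.

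RNA came from fruits of Cucumis sativus taken on the day the flower opened, from greenhouse plants of a pair of near-isogenic lines with short, light green fruits. Every library was total RNA of untreated whole fruit, and 3 replicates were sequenced for each line. The labels assign all 6 samples to inbred line 1461 in the genotype field, so the line of each sample was read from its title; the labels name no allele that sets the lines apart. Nor do they say whether replicates were separate plants, so the spread given here is the spread between these samples and may be technical.

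As background, crossing back to a recurrent parent leaves near-isogenic lines alike except in segments kept from a donor, so genes that differ between them can lie inside such a segment or respond to it from elsewhere. The study concerns carpel number, that is, how many fused units build the fruit. Carpels are made by the floral meristem, whose size is held in check by a loop between the secreted peptide CLAVATA3, which limits the stem cells, and the homeodomain protein WUSCHEL, which maintains them. FRUITFULL-type MADS-box factors act in meristem identity and fruit development, and auxin marks the sites at which organs form. The table pairs its IDs with no symbol or description, and 0 of the 17073 IDs matched the RefSeq gene table at hand, so the 82 genes are named by ID and no function is given for any of them. Marker genes of carpel, ovule, stamen, phloem or green tissue could not be looked up for the same reason, and the labelled tissue was not checked against them. In bulk tissue, a gene's higher level in GFC through more RNA per cell cannot be told apart from a larger share of the cells that express it.

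Depth was similar among libraries, at 15320600 to 18089654 recovered reads, and 1 read was worth 0.0553 to 0.0653 RPM. Where a gene had 0 reads in all 3 32X libraries, its fold is given against a floor of 3 reads over the whole 32X group. This floor covers counting error only, and so do the two-sided 95% intervals given for ratios of read rates. RPM values are not divided by transcript length, so an order of genes by RPM is an order by reads taken, not by transcript number.

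**Figure D1:**
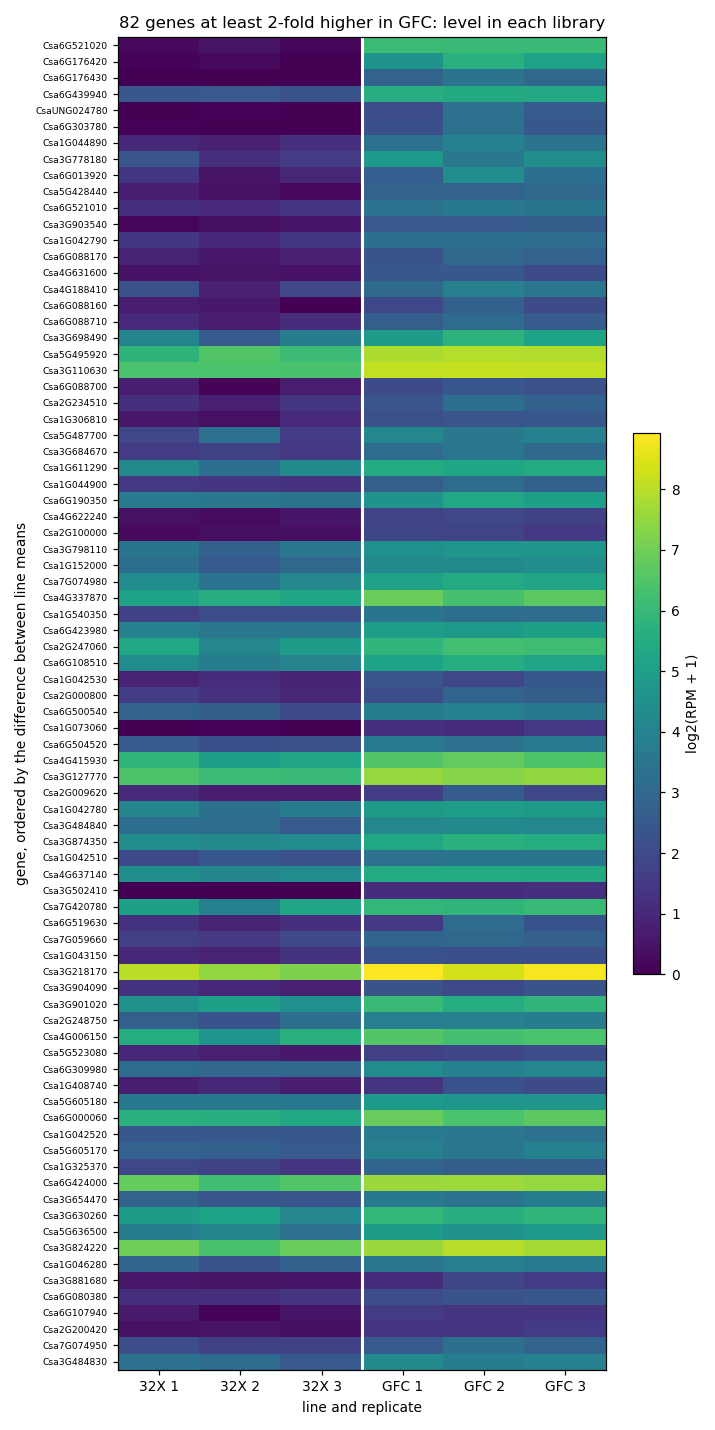
Level of each of the 82 genes (rows, by falling difference) in each of the 6 libraries (columns, replicates 1 to 3 of 32X on the left and of GFC on the right), as log2(RPM + 1) in colour. Each row is brighter on the right because the genes were chosen for it; the contrast between the sides is strongest in the top rows, from a difference of 5.77 down to 1.003 in the last row.

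All 82 genes had an adjusted p under 0.05 with limma (82 of 82), beside 8.38% of the listed genes called higher in GFC, and all had groups that did not overlap, beside 21.4% of the listed genes. The selection used this contrast, so nothing is read from either count. The differences on the log2(RPM + 1) scale, always 32X subtracted from GFC, ran from 1.003 to 5.77 with a median of 1.26, while the median over all listed genes was 0.0017. Most of the chosen genes sat close to the limit: 55 had a difference under 1.5, and 15 had one between 1.5 and 2. Only 8 lay between 2 and 3, and 4 lay above 3. By reads the 82 genes took 0.135%, 0.107% and 0.111% of 32X replicates 1 to 3 and 0.312%, 0.306% and 0.309% of GFC replicates 1 to 3.

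The largest difference belonged to Csa6G521020, which stood at 0.184, 0.392 and 0.118 RPM in 32X and at 67.7, 65.3 and 65.3 RPM in GFC. It was close to silent in every 32X library and had one of the narrowest spreads between GFC libraries. Its difference was 5.77 ± 0.13 (SE, n = 3 per line), from 11 reads in 32X and 3427 in GFC, a ratio of read rates of 292 (95% interval 163 to 585). Each SE given here for a difference is limma's moderated one. It draws on the variance of all listed genes and not only on the spread of the gene's own libraries. Csa6G176420 had 0.0613, 0.131 and 0 RPM in 32X and 22.3, 49.9 and 33.2 RPM in GFC. The GFC libraries of this gene differed among themselves more than 2-fold, with replicate 2 highest, yet all lay far above 32X. Its difference was 5.01 ± 0.25 (SE), and 3 against 1842 reads gave a ratio of 575 with a wide interval of 196 to 2790.

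Csa6G176430, the next listed gene by ID, was listed at 0 in all 3 32X libraries and at 6.20, 9.85 and 6.97 RPM in GFC. Again GFC replicate 2 was highest. With 0 reads in 32X against 400 in GFC, its level was at least 125-fold higher in GFC, taking 3 reads over the 32X group as the floor, and the two-sided 95% interval of the ratio began at 101. Its fitted difference was 3.09 ± 0.18 (SE). Csa6G439940 differed from these in being present in both lines, at 4.35, 4.70 and 3.83 RPM in 32X and 46.6, 41.6 and 40.6 RPM in GFC. The libraries of each line lay close together, and the ratio of read rates was 10 (8.67 to 11.6) for a difference of 3.05 ± 0.11 (SE).

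The fifth and sixth places were held by a pair with near-equal profiles, 1 of them without a place by ID. CsaUNG024780, on unplaced sequence, had 0, 1 and 0 reads in 32X and 53, 162 and 91 in GFC, and its difference was 2.65 ± 0.28 (SE). Csa6G303780 had 1, 0 and 0 reads in 32X and 57, 163 and 79 in GFC, with a difference of 2.62 ± 0.27 (SE). In both, GFC replicate 2 held more than 2-fold the RPM of replicate 1, and the 32X group rested on a single read: the ratios were 287 (51.0 to 11354) and 280 (49.9 to 11095).

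Of the next genes in the order, Csa1G044890 had 1.04, 0.783 and 1.30 RPM in 32X and 9.17, 14.4 and 9.90 RPM in GFC, a difference of 2.56 ± 0.19 (SE). Csa3G778180 had 4.23, 1.31 and 2.005 RPM in 32X and 27.4, 10.9 and 20.3 RPM in GFC, a difference of 2.55 ± 0.35 (SE). Csa6G013920 had 1.72, 0.392 and 0.943 RPM in 32X and 5.33, 19.8 and 8.68 RPM in GFC, a difference of 2.48 ± 0.39 (SE). The last 2 were uneven within both lines, and their GFC spread was among the 3 widest of the 82 genes. Csa5G428440 had 0.675, 0.326 and 0.177 RPM in 32X and 6.20, 5.94 and 7.24 RPM in GFC, a difference of 2.43 ± 0.18 (SE). It was even in GFC and low and uneven in 32X. Of the 12 genes with a difference of at least 2, 7 carried the code of chromosome 6, which holds 16.6% of listed genes. Among these 7, Csa6G176420 and Csa6G176430 are neighbours by ID, as are Csa6G521010 and Csa6G521020. Csa6G521020, Csa6G176420, Csa6G176430 and Csa6G303780 were under 1 RPM in every 32X library, so they are in the table only through GFC. The same holds for CsaUNG024780, Csa5G428440 and Csa3G903540, which are also among the 12.

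**Figure D2:**
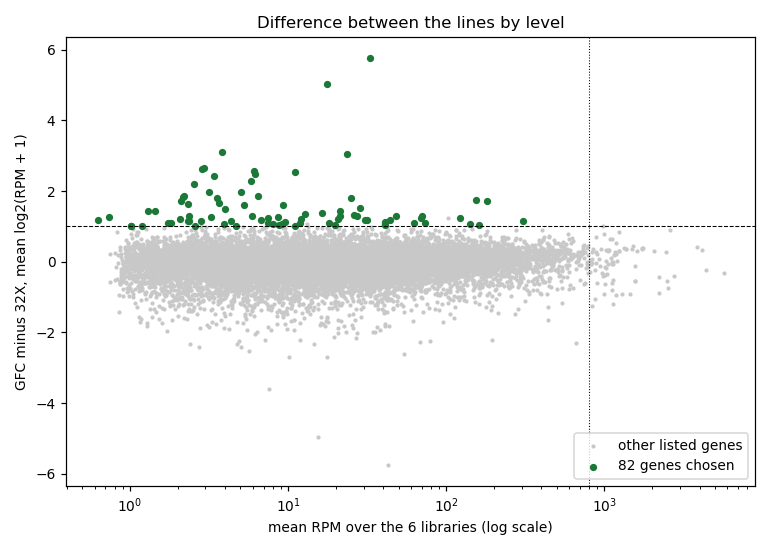
Difference between the lines (GFC minus 32X, mean log2(RPM + 1)) against the mean RPM over the 6 libraries on a log axis, for the 82 chosen genes (green) and all other listed genes (grey); the dashed line is the difference of 1 and the dotted line 800 RPM. The green points crowd just above the dashed line, and 45 of the 82 lie below 9.02 RPM, in the lowest of 4 equal classes of listed genes.

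The chosen genes were low in reads compared with the table as a whole. Their median over the 6 libraries was 7.49 RPM, against 25.8 RPM for all listed genes and 10.4 RPM for the 359 genes of the mirrored rule. Of the 82 genes, 45 (54.9%) fell in the lowest of 4 equal classes of listed genes by level, under 9.02 RPM; 17, 10 and 10 fell in the other classes, in rising order. In GFC itself, 8 genes averaged at least 100 RPM, 29 at least 20 RPM and 46 at least 10 RPM, while 20 averaged under 5 RPM. In 32X, 24 averaged under 1 RPM, and 19 were under 1 RPM in each of the 3 libraries. Every listed gene reached 1 RPM in at least 3 libraries, so those 19 genes are in the table only through GFC and had to differ.

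The highest of them by reads was Csa3G218170, at 257, 180 and 142 RPM in 32X and 489, 331 and 448 RPM in GFC. Both lines were uneven, and the lowest GFC library was 331 RPM against 257 RPM for the highest of 32X. The difference was 1.15 ± 0.21 (SE). Csa3G110630 had 84.2, 83.9 and 81.9 RPM in 32X and 275, 284 and 274 RPM in GFC, a difference of 1.72 ± 0.07 (SE). Its libraries agreed closely within each line, with means of 83.3 ± 1.25 and 278 ± 5.48 RPM (SD, n = 3). Csa5G495920 had 54.8, 90.9 and 68.1 RPM in 32X and 228, 247 and 241 RPM in GFC, a difference of 1.76 ± 0.15 (SE). It was uneven in 32X and even in GFC.

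The other 3 of the 6 highest averaged less in GFC. Csa3G824220 averaged 107 ± 22.0 RPM in 32X and 217 ± 29.0 RPM in GFC (SD, n = 3). Csa6G424000 averaged 91.5 ± 20.5 and 190 ± 7.48 RPM, and Csa3G127770 averaged 72.8 ± 10.9 and 173 ± 13.2 RPM. Their differences were 1.03, 1.07 and 1.24. Of the 6 highest, 4 carried the code of chromosome 3, which holds 21.1% of listed genes. Together the 6 held 51.0% to 53.9% of the reads of all 82 genes in the 32X libraries and 47.8% to 49.8% in the GFC libraries, so about as many reads came from these few as from all the rest.

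At the low end, Csa3G502410 had 0 reads in each 32X library and 19, 22 and 24 reads in the GFC libraries. Its level was at least 20.3-fold higher in GFC against the floor of 3 reads over the 32X group, with a two-sided 95% interval that began at 16.0, although the difference on the log2(RPM + 1) scale was only 1.17. Csa1G073060 had 0, 1 and 0 reads in 32X and 21, 22 and 33 in GFC, a difference of 1.26 and a ratio of 71.2 (12.4 to 2847). Both were all but absent from 32X and low in GFC, at 1.25 ± 0.0746 and 1.46 ± 0.319 RPM (SD, n = 3). The remaining low genes had some reads in 32X: Csa6G107940 averaged 0.343 and 1.68 RPM in 32X and GFC, Csa2G200420 0.331 and 1.69 RPM, Csa3G881680 0.432 and 1.96 RPM, and Csa2G100000 0.247 and 2.36 RPM. In all, 6 genes had at most 3 reads over the 3 32X libraries and the other 76 had more than 10.

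**Figure D3:**
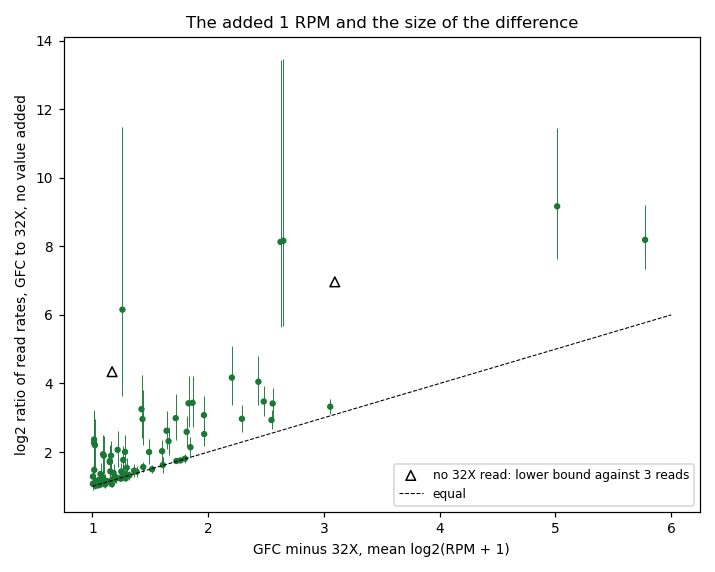
For each gene, the log2 ratio of read rates (GFC to 32X, nothing added) against the difference on the log2(RPM + 1) scale that chose it; vertical lines are 95% counting intervals, open triangles are lower bounds for the 2 genes with 0 reads in 32X, and the dashed line marks equal values. Points of well expressed genes lie near the line, and those of low genes above it.

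The 1 RPM added before taking logs shortens the difference of a low gene. A ratio of read rates of at least 4 was reached by 29 of the 80 genes with a read in 32X. The 2 genes with 0 reads in 32X have no ratio, but their lower bounds, given above, also exceeded 4. A difference of at least 2 on the log2(RPM + 1) scale was reached by only 12 of all 82 genes. Over the 80 genes with a read in 32X the median ratio was 3.01, and the lowest was 2.02 (Csa3G824220). The order by difference is therefore not the order by ratio: Csa1G073060, at 1.26, had a larger ratio than Csa6G439940, at 3.05.

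The limits that chose the genes cut through dense stretches of values. Between differences of 1 and 1.1 there were 20 chosen genes, and 36 genes that met the other conditions lay between 0.9 and 1. Nearest inside were Csa3G484830 and Csa7G074950, at 1.003 and 1.004, and Csa2G200420 at 1.01. Nearest outside were Csa2G006250 at 0.99, and Csa4G290180 and Csa3G812220, both at 0.98. The condition on overlap removed 5 of the 88 genes with a difference of at least 1, and the limit of 800 RPM removed 1. That gene, Csa3G873800, had 692.5, 453.7 and 817.2 RPM in 32X and 1292, 1297 and 1289 RPM in GFC, a difference of 1.02. It was uneven in 32X and even in GFC, and the groups did not overlap.

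Among those kept, Csa6G519630 came nearest to overlapping, with 1.47, 0.849 and 1.30 RPM in 32X and 1.80, 7.70 and 3.81 RPM in GFC. Csa5G487700 followed, with 2.76, 9.14 and 1.95 RPM in 32X and 16.5, 11.04 and 14.1 RPM in GFC, and then Csa1G408740, with 0.675, 1.04 and 0.590 RPM in 32X and 1.61, 3.79 and 3.21 RPM in GFC. In each of the 3, a single library stood near the other line. With Csa7G420780 (32.8, 14.1 and 38.6 RPM in 32X and 59.6, 57.2 and 63.8 RPM in GFC) they were the 4 genes that lost limma's call when some library was left out. Csa6G519630 fell from 1.16 to 0.75 without GFC replicate 2. Csa7G420780 fell from 1.17 to 0.74 without 32X replicate 2 but kept its call there. It lost the call without each GFC replicate in turn, at differences of 1.12 to 1.20. Of the 5 overlapping genes, Csa5G514500 was the most uneven, at 45.9, 22.5 and 76.2 RPM in 32X and 25.4, 308 and 135 RPM in GFC. Csa3G020080 had 19.5, 10.4 and 42.4 RPM in 32X and 18.2, 104 and 44.2 RPM in GFC, and Csa2G004720 had 5.89, 3.72 and 9.32 RPM in 32X and 3.35, 41.4 and 15.8 RPM in GFC. In these 3 and in Csa6G007450, GFC replicate 2 was highest, replicate 3 next and replicate 1 lowest; the exception was Csa6G052740, where 32X replicate 2 (5.48 RPM) exceeded all 3 GFC libraries.

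Even without overlap, the chosen genes had a larger median spread between libraries of a line than listed genes at large. The median SD of log2(RPM + 1) was 0.23 in 32X, against 0.14 over all listed genes, and 0.18 in GFC, against 0.10. At matched levels the gap depended on the class. For line means in 32X between 5 and 20 RPM the median was 0.32 for 19 chosen genes and 0.16 for listed genes, between 20 and 100 RPM 0.34 for 12 and 0.12, and from 100 RPM 0.37 for 2 and 0.12. In GFC it was 0.23 for 33 chosen genes and 0.12 for listed genes between 5 and 20 RPM, 0.15 for 21 and 0.083 between 20 and 100 RPM, and 0.15 for 8 and 0.068 from 100 RPM. Between 1 and 5 RPM both medians were 0.18 in GFC, and in 32X they were 0.23 for 25 chosen genes and 0.21 for listed genes. Under 1 RPM in 32X the chosen genes had the smaller median, at 0.14 for 24 of them against 0.20 for listed genes. That class includes the 6 genes with at most 3 reads over the 32X libraries, whose SDs in 32X were 0.089 or lower. The widest GFC spreads were those of Csa6G013920 (0.87), Csa6G519630 (0.82) and Csa3G778180 (0.64). The narrowest were those of Csa4G637140 (43.5, 43.1 and 42.2 RPM, SD 0.021), Csa3G110630 and Csa6G521020. Another criterion, with nothing added, was that the lowest GFC library had at least 2-fold the RPM of the highest 32X library. It was met by 44 of the 82 genes and by 53 listed genes in all.

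Single libraries had a recognisable place in these genes. Among the 77 genes without ties in 32X, replicate 1 was the highest 32X library in 43 (55.8%), against 30.5% of listed genes, and replicate 2 was the lowest in 39 (50.6%), against 35.3%. In GFC, replicate 2 was the highest in 41 genes (50%), against 30.9% of listed genes, and replicate 1 was the lowest in 35 (42.7%), against 30.1%. These shares describe 1 library each. The rule used the same libraries, and the part of any library in the choice of genes was not tested beyond leaving each out in turn.

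GFC replicate 2 reached at least 2-fold the RPM of replicate 1 in 10 chosen genes (12.2%) and in 167 listed genes (0.978%), and in all 10 replicate 3 lay in between. The 10 were Csa6G519630, Csa6G013920, CsaUNG024780, Csa6G303780, Csa2G009620, Csa1G408740, Csa6G176420, Csa3G881680, Csa6G088160 and Csa2G234510, with ratios from 4.28 down to 2.003. Low level went with it: of the 20 chosen genes at 1 to 5 RPM in GFC, 5 had such a gap, against 3.08% of listed genes at that level. At 5 to 20 RPM, 4 of 33 had one, against 0.678%. At 20 to 100 RPM it was 1 of 21, against 0.236%.

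**Figure D4:**
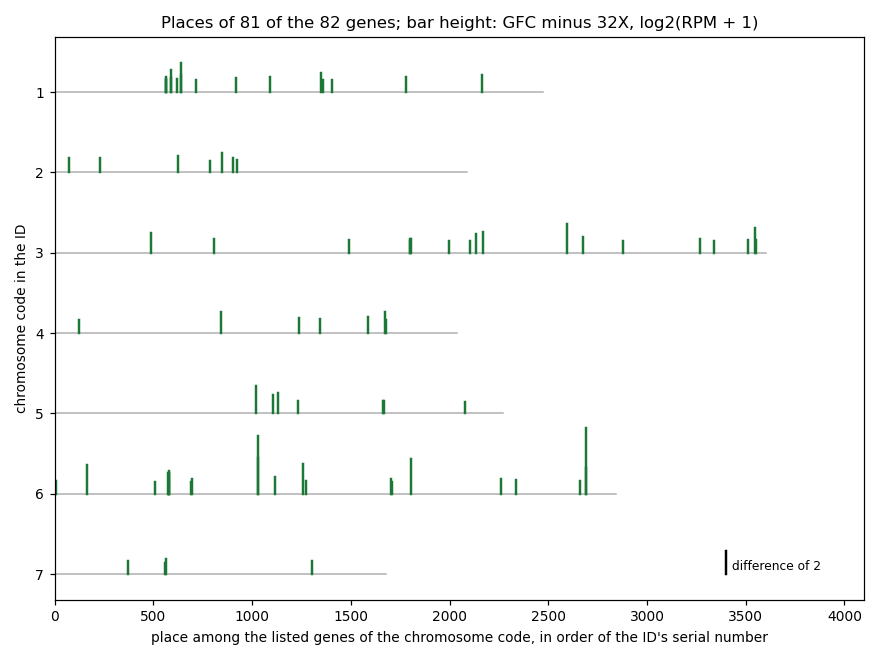
Place of 81 of the 82 genes along each chromosome code (rows 1 to 7), counted in listed genes in order of the ID's serial number; the bar's height is the difference between the lines on the log2(RPM + 1) scale (scale bar: 2), and CsaUNG024780 is left out. The tallest bars stand on chromosome 6, and several bars coincide because the genes are next to each other.

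In this naming scheme the digit after Csa stands for the chromosome, and serial numbers rise along it. Positions are given by ID only, since the sources used here name no genome build. Chromosome 6 held 22 of the 82 genes (26.8%), against 16.6% of listed genes and 16.4% of the genes of the mirrored rule. Chromosome 3 held 18 (22.0%, against 21.1% of listed genes) and chromosome 1 held 16 (19.5%, against 14.5%). Chromosomes 2, 4 and 5 held 7 each, chromosome 7 held 4, and 1 was on unplaced sequence.

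Some of the chosen genes were direct neighbours, meaning that no other listed gene lay between them by ID. There were 11 such pairs, in which 19 genes (23.2%) took part, while 140 of the 16991 other listed genes (0.824%) lay next to a chosen gene. Of the 359 genes of the mirrored rule, 43 (12.0%) lay next to one another. In 10 of the 11 pairs the serial numbers were 10 apart, the usual step, as in 11610 of the 17065 neighbouring pairs of listed genes. The 140 other genes flanking a chosen gene had a median difference of 0.03, and 18 of them (12.9%) were called higher in GFC by limma and 23 (16.4%) lower. The corresponding shares were 7.94% of all genes outside the set and, for lower calls, 12.2% of listed genes. The library kit keeps strand, but the strand setting used in counting is not given, so reads shared between adjoining models or near-identical copies cannot be told apart from separate transcripts.

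**Figure D5:**
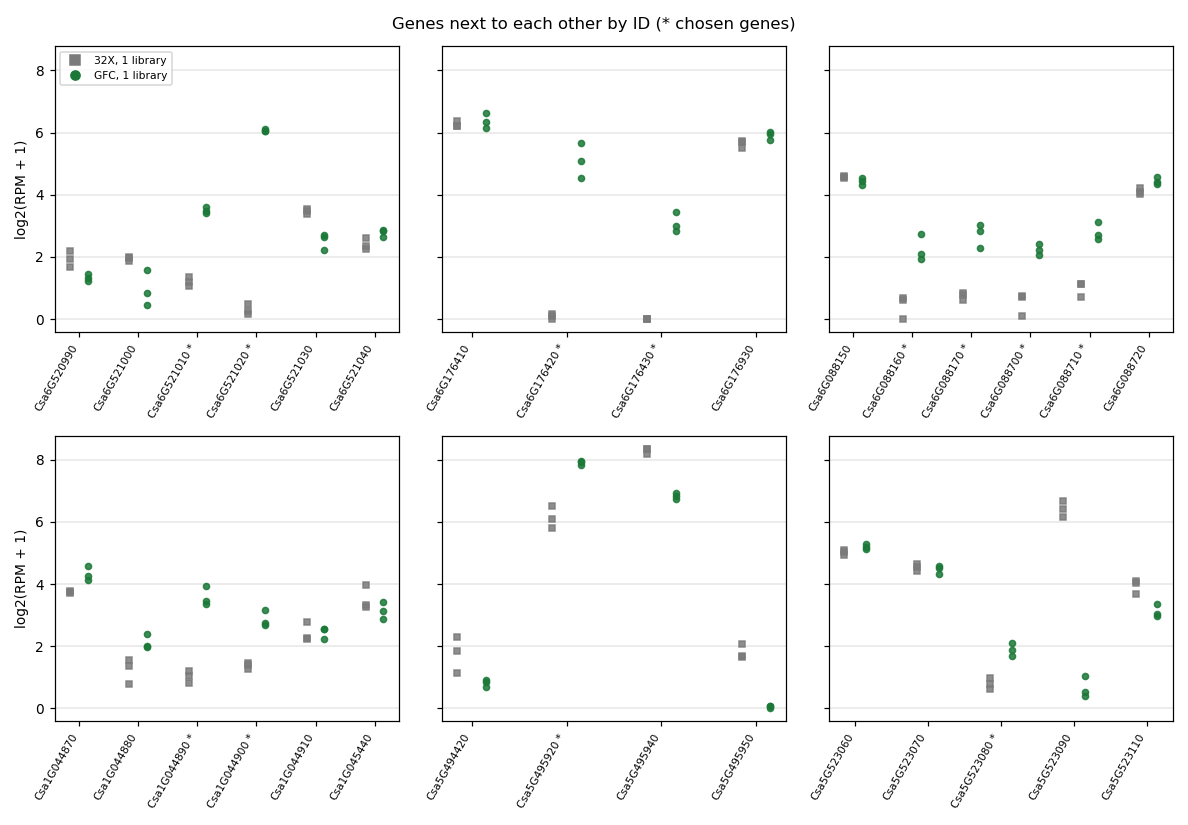
Level of genes next to each other by ID, as log2(RPM + 1), with 1 point per library (grey squares 32X, green circles GFC) in 6 stretches; an asterisk marks a chosen gene. In the first 4 panels adjoining chosen genes are higher in GFC while the genes at their sides differ less or are lower in GFC, and in the last 2 a chosen gene lies beside one that is lower in GFC.

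The pair whose smaller difference was largest was Csa6G176420 and Csa6G176430, at 5.01 and 3.09. Both were under 1 RPM in every 32X library, so they are in the table only through GFC and had to differ. Over the 3 GFC libraries the reads of the first were 3.59, 5.07 and 4.77 times those of the second. On their sides, Csa6G176410 averaged 75.8 RPM in 32X and 82.2 RPM in GFC, and Csa6G176930 averaged 49.1 and 59.2 RPM. Those flanking genes differed by 0.11 and 0.26, and neither passed limma's test (adjusted p = 0.55 and 0.0791).

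Csa6G521020 lay beside Csa6G521010, which had 1.29, 1.11 and 1.53 RPM in 32X and 9.61, 11.2 and 10.1 RPM in GFC. Neither line's libraries came near the other's, and the difference was 2.29 ± 0.14 (SE). The balance within the pair was not the same in both lines: reads of Csa6G521020 were 7.05, 5.86 and 6.45 times those of Csa6G521010 in GFC, and 0.143, 0.353 and 0.0769 times in 32X. The genes on either side went the opposite way. Csa6G521000 averaged 2.83 RPM in 32X and 1.04 RPM in GFC, a difference of -0.98 (limma, adjusted p = 0.0278). Csa6G521030 averaged 10.1 and 4.82 RPM, a difference of -0.94 (adjusted p = 0.00416).

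The longest run was of 4 low genes, Csa6G088160, Csa6G088170, Csa6G088700 and Csa6G088710, with a step of 530 serial numbers in the middle and no listed gene in it. Their summed level was 3.25, 1.76 and 2.54 RPM in 32X and 15.4, 24.8 and 18.0 RPM in GFC. Each of the 4 was at or under 1.18 RPM in every 32X library, and their differences were alike, at 1.83, 1.96, 1.72 and 1.81. Csa6G088160, Csa6G088170 and Csa6G088700 were under 1 RPM in every 32X library. They are therefore in the table only through GFC and had to differ, so nothing is read from that likeness. The flanking Csa6G088150 differed by -0.13 and Csa6G088720 by 0.33 (limma, adjusted p = 0.333 and 0.0551).

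Chromosome 1 held a run of 3 in Csa1G042510, Csa1G042520 and Csa1G042530, with a summed level of 9.12 ± 0.890 RPM in 32X and 24.1 ± 0.804 RPM in GFC (SD, n = 3). The 3 differences lay between 1.09 and 1.28. Csa1G042780 (12.4 ± 3.40 and 29.2 ± 1.96 RPM) and Csa1G042790 (1.49 ± 0.386 and 8.65 ± 0.405 RPM) were a further pair there, at 1.20 and 1.97. Csa1G044890, described above, was followed by Csa1G044900, which had 1.78, 1.63 and 1.42 RPM in 32X and 5.46, 8.04 and 5.69 RPM in GFC. In both of these GFC replicate 2 was highest, and their read ratio was steady in GFC at 1.68, 1.79 and 1.74. In 32X it was 0.586, 0.480 and 0.917. The 32X ratios rested on only 51 and 78 reads over the 3 libraries, against 581 and 333 in GFC. Just before the pair, Csa1G044880 (1.42 and 3.42 RPM, difference 0.89) and Csa1G044870 (12.4 and 19.2 RPM, difference 0.58) were also called higher by limma (adjusted p = 0.0235 and 0.0135). Just after it, Csa1G044910 averaged 4.43 and 4.50 RPM.

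These pairs lay in one stretch of chromosome 1, from Csa1G042510 to Csa1G046280, which held 9 chosen genes among 154 listed ones. The rest of the chromosome held 7 among 2317. The stretch was picked after its values were seen, so its share of 5.84% is a description. The 145 other genes inside it had a median difference of 0.006, with 18 called higher (12.4%) and 18 called lower (12.4%). The corresponding shares were 7.94% of all genes outside the set for higher calls and 12.2% of listed genes for lower calls. Of the 145, 3 belonged to the mirrored rule. The 9 chosen genes summed to 36.0, 27.2 and 33.5 RPM in 32X and 90.6, 103 and 91.5 RPM in GFC.

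The other neighbours had moderate levels and differences near the limit. Csa3G484830 and Csa3G484840 averaged 7.08 ± 2.26 and 7.05 ± 2.03 RPM in 32X and 14.9 ± 2.81 and 17.0 ± 0.712 RPM in GFC (SD, n = 3). In both, 32X replicate 3 was the lowest library. Csa5G605170 and Csa5G605180 averaged 5.51 ± 0.606 and 11.3 ± 0.0785 RPM in 32X and 12.8 ± 2.10 and 25.2 ± 1.18 RPM in GFC, with differences of 1.07 and 1.09.

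Chosen genes also lay beside genes that were lower in GFC. Of the 82, 9 (11.0%) were next to a gene of the mirrored rule, as were 650 of the genes in neither set (3.91%). Csa5G495920, the third highest of the chosen genes, was followed by Csa5G495940, which had 290, 328 and 321 RPM in 32X and 114, 121 and 105 RPM in GFC. The 2 genes moved in opposite directions by similar amounts, 1.76 and -1.46. Their sum was 384 ± 37.0 RPM in 32X and 352 ± 14.1 RPM in GFC (SD, n = 3), and the next gene, Csa5G495950, was also lower in GFC (2.51 and 0.0391 RPM).

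Csa5G523080 had 0.981, 0.718 and 0.531 RPM in 32X and 2.23, 2.66 and 3.32 RPM in GFC, a difference of 1.098. Beside it Csa5G523090 had 70.8, 102 and 84.0 RPM in 32X and 0.310, 1.08 and 0.442 RPM in GFC, a difference of -5.76. The larger change of the 2 was thus the fall of the neighbour. Csa6G423980 (12.0 and 30.6 RPM) and Csa6G424000 stood on either side of Csa6G423990, which averaged 8.57 RPM in 32X and 2.17 RPM in GFC. Csa1G540350 (3.03 and 8.85 RPM) lay beside Csa1G540370, at 3.01 RPM in 32X and 0.190 RPM in GFC. The remaining 4 were Csa4G622240, Csa4G415930, Csa6G107940 and Csa7G074950, whose lower neighbours differed by -1.39, -1.12, -1.77 and -1.23.

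The 40 chosen genes that the naming rule did not single out had differences from 1.02 to 2.20 with a median of 1.25. They averaged 0.265 to 46.4 RPM in 32X and 2.56 to 100.3 RPM in GFC. By chromosome code, 7 were on 1, 5 on 2, 9 on 3, 6 on 4, 2 on 5, 8 on 6 and 3 on 7.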

How the data were processed

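The authors deposited 1 table of RPM values for 17073 genes in 6 libraries. Per the submitters' processing notes HTSeq and TopHat were among the tools; no version, genome build, annotation or strand setting is given. Columns summed to 1000000, and 100% of values were whole multiples of 1 read within 0.001 reads, so reads were recovered. Genes were chosen by the rule given above. Lines were compared by limma 3.58.1 (R 4.3.3) on log2(RPM + 1), all genes in 1 fit, two-sided, Benjamini-Hochberg adjusted p under 0.05, with the code tested on simulated data. Read ratios have exact Clopper-Pearson 95% intervals. Alternatives were edgeR 4.0.16 and DESeq2 1.42.0 on recovered reads, other scalings, pseudocounts and filters, a replicate block, and leaving out each library. Genes were named by rule: the 10 largest differences, the 6 highest and 6 lowest in GFC, neighbours, and genes with at most 10 reads in 32X. So were the 3 nearest to each limit, and the 3 widest and narrowest GFC spreads. Genes beside one of the mirrored rule, flanking genes, Csa7G420780, Csa3G903540 and the genes with a GFC replicate gap were named after their values were seen. The genes and lists were chosen with earlier results of these data known. Prepared function and marker lists matched 0 IDs and were not used.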

Additional observations from a re-analysis of the deposited data

How the results depend on the processing

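The number of genes that met the rule depended most on the value added before taking logs: it was 82 with 1 RPM, 150 with 0.1 RPM (all 82 kept) and 36 with 5 RPM (all among the 82). With edgeR's log2 fold change in place of the difference it was 148, again with all 82 kept. It was 82 under TMM scaling, 83 under median-of-ratios and 106 under quantile scaling, with the 82 kept in each, and 55 after a filter of 5 RPM in 3 libraries. Leaving out 1 library gave 77 to 120 genes, the most without 32X replicate 1, and 56 of the 82 met the rule without each library in turn. The 11 neighbour pairs became 2 with 5 RPM added and 7 after the filter, and numbered 10 to 14 under the other alternatives. Of the 82 genes, 78 to 82 were called higher by limma without 1 library, and 82 by edgeR and 81 by DESeq2. With the replicate block 81 were called, Csa6G519630 being lost; deviations of same-numbered samples correlated at -0.04, -0.27 and -0.09, so the numbers were not taken to pair the samples. Among 614 values of named genes under the alternatives, 508 stayed within 1 SD, 106 moved further and 0 reversed. Depth limits the 6 genes with at most 3 reads in 32X, whose ratios have wide intervals or only a lower bound.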
